A study of Mus musculus with 12 samples.

Results

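The regions of open chromatin around 6 genes for transcription factors of resting and early lymphocytes were followed in mouse natural killer (NK) cells: Tcf7, Lef1, Foxo1, Foxp1, Klf2 and Id3. A region belongs to the set when it lies within 50 kb of 1 of the 6 gene bodies, and 95 of the 45082 regions of the genome did so. Foxp1 held 39 of them, Tcf7 14, Lef1 12, Id3 12, Foxo1 9 and Klf2 9. Of the 95 regions, 52 lay inside a gene body, 8 over an annotated start, 16 upstream and 19 downstream. Which of them fall in exons, introns or UTRs was not analysed here. The body of another protein-coding gene was nearer to 19 of the regions, 7 of them near Klf2, 6 near Id3, 3 near Tcf7 and 3 near Lef1.

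These genes are known for keeping lymphocytes immature, naive or quiescent. Tcf7 (protein TCF1) and Lef1 are related HMG-box factors that act in early T and NK cell development. Foxo1 is a forkhead factor that works in the nucleus of resting lymphocytes and is moved to the cytoplasm by Akt signalling, and Foxp1 is a forkhead repressor that holds naive mouse T cells at rest. Klf2 is a zinc finger factor needed for quiescence and for exit from lymphoid organs through S1pr1, and Id3 is a helix-loop-helix protein that binds E proteins and keeps them off DNA.

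ATAC-seq measures accessible DNA through the cuts of a transposase. It was run on 100000 splenic NK cells per library, in 4 groups of 3 libraries. KO stimulated cells were NK cells without Regnase-1 (Reg-1ΔNK) given the cytokines IL-12 and IL-18, and WT stimulated cells carried the floxed Regnase-1 allele (Reg-1 fl/fl) and got the same cytokines. KO control and WT control cells were the same genotypes without stimulation. Regnase-1, encoded by Zc3h12a, is an enzyme that cuts and clears inflammatory transcripts. The Cre driver, the ages of the mice, the cytokine doses and the duration are not given in the sources used here. Whether the 3 libraries of a group come from different animals is not labelled. The p-values therefore reflect the spread among these libraries only, and that spread may be technical. Bulk peaks also do not separate fewer cells with an open site from less opening per cell.

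The deposited lists held 35110 to 63128 distinct intervals, and each was reduced to its 35110 strongest by deposited −log10 q. A library called a region if at least 1 of those intervals overlapped it. Its strength percentile is the interval's rank within that list, 100 for the strongest and 0 when the region was not called. The weakest interval kept had a −log10 q of 1.31 in KO stimulated replicate 1, against 4.60 to 27.05 in the other libraries, so equal lists were not equally stringent. KO stimulated replicate 1 stood apart: 32 regions of the genome at or above a percentile of 75 in the other 5 stimulated libraries had no deposited interval in it. The same count, against the other libraries of its treatment, was 6 for WT control replicate 1 and 0 for each of the others. The gene body of the deleted gene, Zc3h12a, held 1 region, called in every library at percentiles of 97.5 to 99.5, which does not check the deletion. Of 8 NK marker genes 7 had a called region in all 12 libraries, and Klra8 had none. Of 7 T cell markers 4 were called in all 12 libraries, Trac and Cd3d among the strongest and Cd8a with none. Among 6 B cell markers 2 were called in all 12, with Cd79b and Ms4a1 among those called in none. Among 6 myeloid markers 2 were called in all 12, Itgax at percentiles of 32.7 to 70.4 and Cd14 at 14.1 to 45.9. Csf1r, Lyz2, Adgre1 and S100a8 were called in none. Among 5 erythroid markers 2 were called in all 12, Klf1 at 75.9 to 85.9 and Epor at 14.4 to 44.8. Gata1 and Hbb-bs were called in none.

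Of the 14 annotated starts of the 6 genes, 12 lay inside a region. The promoter windows of 8 starts, at least 1 for each gene and 250 bases before to 50 after the start, are shown because the regions over or beside these starts are compared between groups. They are given 5′ to 3′ on the strand of the gene, from RefSeq on GRCm38.p6. They were searched on both strands for TTCAAAG and ATCAAAG (TCF/LEF), TGTTTAC (forkhead), GGGTGTG and GGGCGTG (KLF), GGGANTTCC (NF-kB), TTCNNNGAA (STAT), TGANTCA (AP-1), TGTGGT (RUNX) and CANNTG (E-box), and capitals mark every match except E-boxes. A match describes the letters only.
Tcf7 second listed start, chr11:52282546-52282845, minus strand: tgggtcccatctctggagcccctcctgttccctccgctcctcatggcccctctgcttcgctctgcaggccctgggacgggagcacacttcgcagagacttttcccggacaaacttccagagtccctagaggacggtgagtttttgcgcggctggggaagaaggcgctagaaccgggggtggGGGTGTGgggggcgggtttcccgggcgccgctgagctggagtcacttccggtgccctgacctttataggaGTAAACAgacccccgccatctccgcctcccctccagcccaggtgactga
Lef1 outer start, chr3:131110047-131110346, plus strand: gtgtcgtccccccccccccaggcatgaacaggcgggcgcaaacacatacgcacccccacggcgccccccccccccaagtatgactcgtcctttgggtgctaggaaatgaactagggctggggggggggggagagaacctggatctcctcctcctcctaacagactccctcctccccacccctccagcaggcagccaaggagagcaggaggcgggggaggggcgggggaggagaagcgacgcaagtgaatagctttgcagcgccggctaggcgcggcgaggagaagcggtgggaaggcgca
Lef1 inner start, chr3:131156044-131156343, plus strand: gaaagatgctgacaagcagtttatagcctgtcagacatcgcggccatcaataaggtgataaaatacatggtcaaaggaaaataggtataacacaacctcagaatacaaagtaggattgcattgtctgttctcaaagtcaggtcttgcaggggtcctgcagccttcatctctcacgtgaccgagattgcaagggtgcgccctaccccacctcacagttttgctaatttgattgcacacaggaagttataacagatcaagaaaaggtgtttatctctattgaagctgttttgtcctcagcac
Foxo1 start, chr3:52268087-52268386, plus strand: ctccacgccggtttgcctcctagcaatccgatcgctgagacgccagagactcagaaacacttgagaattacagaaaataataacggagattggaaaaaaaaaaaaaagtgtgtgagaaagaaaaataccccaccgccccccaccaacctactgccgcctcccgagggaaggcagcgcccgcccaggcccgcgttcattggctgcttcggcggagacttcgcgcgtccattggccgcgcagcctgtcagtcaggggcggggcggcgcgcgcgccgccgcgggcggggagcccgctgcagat
Foxp1 middle start, chr6:99266466-99266765, minus strand: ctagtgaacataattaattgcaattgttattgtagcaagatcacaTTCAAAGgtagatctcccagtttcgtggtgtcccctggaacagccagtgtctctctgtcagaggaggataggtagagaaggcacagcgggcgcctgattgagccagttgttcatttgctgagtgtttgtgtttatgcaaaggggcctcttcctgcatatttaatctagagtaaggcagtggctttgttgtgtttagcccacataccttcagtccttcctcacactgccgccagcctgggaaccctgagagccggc
Foxp1 inner start, chr6:99028249-99028548, minus strand: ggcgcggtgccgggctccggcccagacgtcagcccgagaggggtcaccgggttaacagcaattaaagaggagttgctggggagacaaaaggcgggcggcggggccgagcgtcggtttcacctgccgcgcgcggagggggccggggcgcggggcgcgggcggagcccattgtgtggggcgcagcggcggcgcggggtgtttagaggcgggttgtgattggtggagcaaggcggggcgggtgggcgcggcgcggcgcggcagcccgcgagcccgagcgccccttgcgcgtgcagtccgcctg
Klf2 start, chr8:72318812-72319111, plus strand: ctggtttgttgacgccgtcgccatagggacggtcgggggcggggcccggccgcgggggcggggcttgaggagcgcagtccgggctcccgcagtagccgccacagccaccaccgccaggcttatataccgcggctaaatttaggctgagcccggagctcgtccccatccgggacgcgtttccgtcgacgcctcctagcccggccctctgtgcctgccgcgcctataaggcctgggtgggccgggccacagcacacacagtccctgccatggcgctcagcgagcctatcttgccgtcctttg
Id3 start, chr4:136143572-136143871, plus strand: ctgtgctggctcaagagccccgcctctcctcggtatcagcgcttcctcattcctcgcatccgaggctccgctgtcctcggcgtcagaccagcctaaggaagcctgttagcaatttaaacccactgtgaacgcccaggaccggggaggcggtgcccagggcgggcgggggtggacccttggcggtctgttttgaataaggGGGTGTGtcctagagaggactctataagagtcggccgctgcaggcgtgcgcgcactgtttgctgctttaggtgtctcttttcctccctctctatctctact
The Tcf7 window shown held 1 forkhead word, read as GTAAACA on this strand, and 1 KLF word. The first listed Tcf7 window, chr11:52282965-52283264, is not shown. It held 1 E-box and 0 of the other words, and was 76.3% GC with 45 CpG dinucleotides. The Id3 window held 1 KLF word, and the Foxp1 middle window held 1 TCF/LEF word. Of 32851 RefSeq promoter windows, 3.65% held TGTTTAC, 7.95% GGGTGTG and 5.14% TTCAAAG. The windows also differed in base composition. The Foxp1 inner window was 75.3% GC with 44 CpG dinucleotides and the Klf2 window 69.3% GC with 32, while the Foxp1 middle window was 48.7% GC and the Lef1 inner window 43.7% GC with 5 CpG each, against a median of 52.7% GC and 7 CpG over all windows.

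Stimulation moved these regions in both directions and in proportions that varied from gene to gene, a variation that was not tested. In strength percentile 17 Foxp1 regions rose and 1 fell of 39, and 1 Tcf7 region rose and 8 fell of 14. Klf2 had 2 that rose and 5 that fell of 9, with 7 of the 9 nearer to another gene. Lef1 had 2 that rose and 4 that fell of 12 (16.7% and 33.3%). Over all regions 18.5% rose and 23.5% fell, so falls outnumbered rises there too. In a test of the number of libraries with a call, stimulated against control, 26 of the 95 regions could reach p of 0.05 or less, and 8 were higher and 8 lower in stimulated cells (exact permutation within genotype, two-sided, Benjamini-Hochberg over all regions that could reach it). Each is 30.8% of the 26, against 33.8% higher and 25.9% lower among all 8834 such regions of the genome. In the test of the strength percentile 24 were higher (25.3%) and 22 lower (23.2%), against 18.5% and 23.5% of all regions. Before adjustment 20 of the 26 had a p of 0.05 or less in the call test (78.8% of such regions over the genome), and 27 regions were higher and 27 lower in the percentile test (22.3% and 29% of all regions). Both tests called 15 regions in the same direction. The median difference in percentile, stimulated minus control, was −0.76 over the 95 regions and −1.60 over all regions. These pooled shares lie near those of the genome, apart from the share that rose in the percentile test. They join unlike parts. By the percentile test 7 of the 56 regions at the genes other than Foxp1 were higher and 21 lower. By the call test 1 of these was higher and 7 lower. At Foxp1 17 of 39 were higher and 1 lower by the percentile test, and 7 higher and 1 lower by the call test. This split was not tested.

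**Figure D1:**
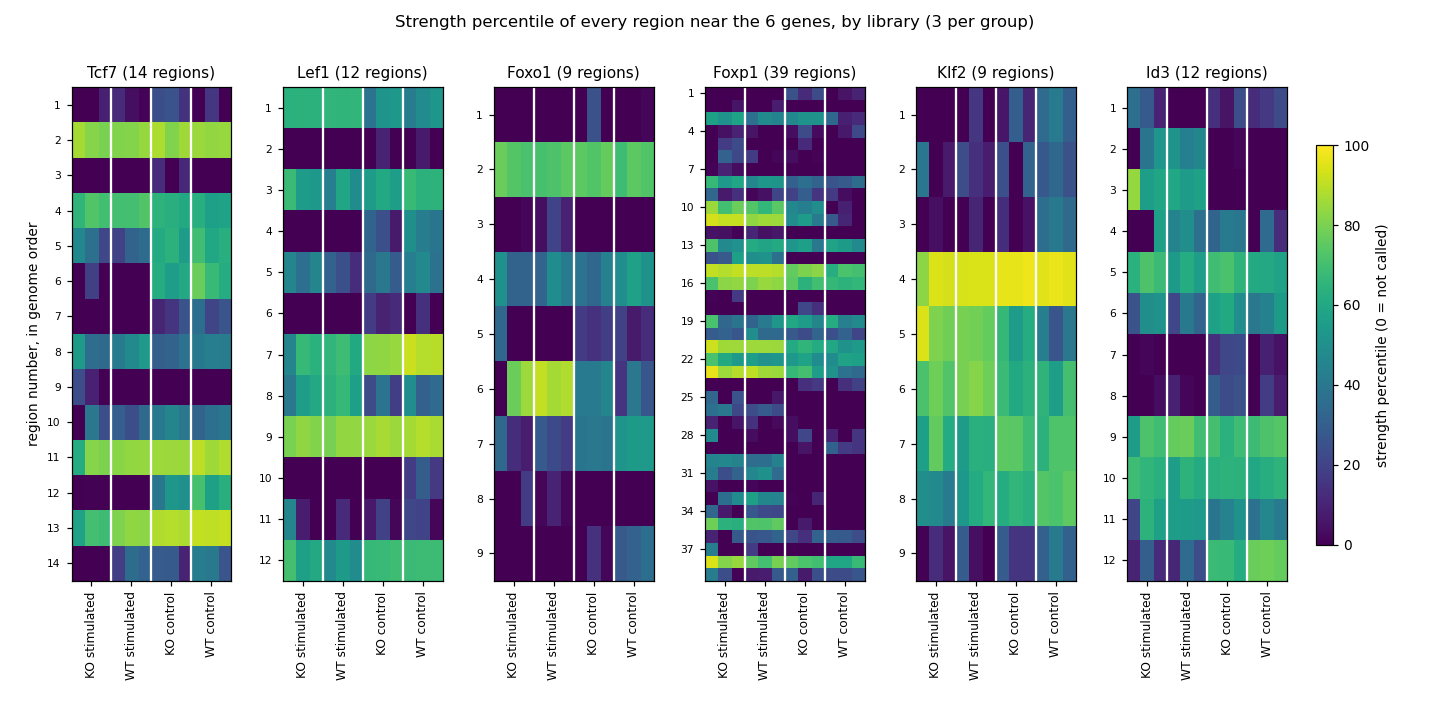
Strength percentile (colour, 0 to 100, 0 for not called) of all 95 regions, 1 row per region in genome order and 1 panel per gene, in 12 libraries with 3 columns per group. Many Foxp1 rows are brighter in stimulated columns, Tcf7 rows 5 to 7 and 12 are brighter in control columns, and Klf2 row 4 is at 82.6 or above in every library.

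The number of called regions per gene gave 1 value per library. Near Foxp1 30, 27 and 31 regions were called in KO stimulated and 30, 24 and 28 in WT stimulated libraries, against 22, 24 and 22 in KO control and 17, 20 and 18 in WT control libraries. The lowest stimulated library and the highest control library met at 24, and within each genotype the groups did not overlap. Near Tcf7 7, 10 and 8 regions were called in KO stimulated and 9, 9 and 9 in WT stimulated libraries, against 13, 12 and 13 in KO control and 11, 12 and 11 in WT control libraries. Every stimulated library was below every control library. Near Lef1 8, 8 and 7 regions were called in KO stimulated and 7, 8 and 7 in WT stimulated libraries, against 10, 11 and 10 in KO control and 10, 12 and 10 in WT control libraries, again with no overlap. The difference, stimulated minus control, was 7.83 regions for Foxp1, −3.33 for Tcf7 and −3 for Lef1, each with an adjusted p of 0.0406 (exact permutation, Benjamini-Hochberg over 17616 genes). Of those genes 5.23% rose and 7.08% fell. The calls were near the threshold. That of Tcf7 ended without KO control replicate 1 (adjusted p = 0.0679) or KO control replicate 3 (adjusted p = 0.0695) and that of Foxp1 without WT control replicate 1 (adjusted p = 0.0619), by the same exact permutation test. All 3 also ended when every deposited interval was used, where the difference was −1.83 regions for Tcf7, −0.167 for Lef1 and 11.3 for Foxp1, and they ended with a −log10 q of at least 10, with calls covering 50% of a region and with 20 kb flanks. With half-length lists Lef1 differed by 0.5 in the other direction.

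Klf2, Foxo1 and Id3 did not pass that test. Klf2 averaged 7 ± 0 called regions in KO stimulated and 7.33 ± 1.53 in WT stimulated libraries, against 8.67 ± 0.58 in KO control and 9 ± 0 in WT control libraries (SD, n = 3 each; exact permutation, adjusted p = 0.0809). Foxo1 averaged 4.67 ± 1.2 in KO stimulated and 6 ± 0 in WT stimulated, against 6 ± 1 in KO control and 6.33 ± 0.58 in WT control libraries (exact permutation, adjusted p = 0.405). Id3 averaged 9.67 ± 1.53 in KO stimulated and 9.67 ± 0.58 in WT stimulated, against 10.3 ± 0.58 in KO control and 9 ± 1.73 in WT control libraries, a difference of 0.

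**Figure D2:**
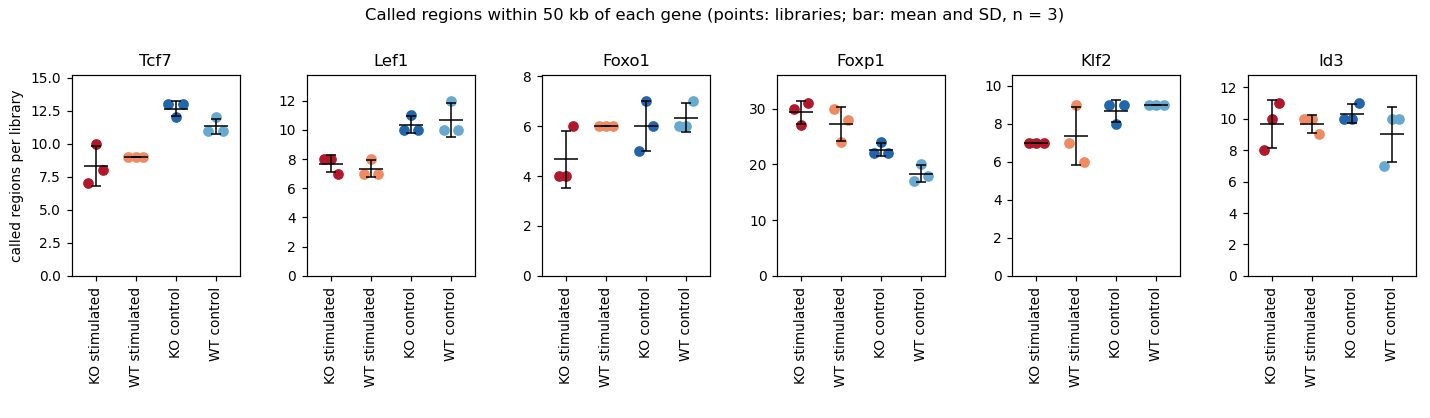
Number of called regions within 50 kb of each gene (vertical axis, from 0), by group; points are libraries and bars the mean and SD of 3. For Tcf7 and Lef1 every stimulated point lies below every control point, and for Foxp1 the stimulated points reach 24 to 31 and the control points 17 to 24.

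Tcf7 lies on the minus strand at chr11:52246527-52283383 in GRCm38.p6, the assembly behind mm10, the build named for the files. Of its 14 regions 8 fell in percentile and 1 rose, and 3 fell by the call test with none higher. Region 6, at chr11:52267758-52269292 inside the gene body 14.1 kb from its start, had percentiles of 0, 19.0 and 0 in KO stimulated and 0, 0 and 0 in WT stimulated libraries, against 61.8, 56.1 and 60.4 in KO control and 77.2, 67.6 and 62.0 in WT control libraries. All control libraries were far above all stimulated ones. The difference was −61.0 (exact permutation, adjusted p = 0.0175, the smallest this test gives here). The region was not empty after stimulation. The lists as deposited held an interval there in 5 of the 6 stimulated libraries, 1 of them among the strongest 35110. Its strongest summits lay within 41 bp of each other where called.

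Region 12, upstream at chr11:52313566-52314847 and 30.2 kb from the start, behaved alike: 0, 0.5 and 0 in KO stimulated and 0, 0 and 0 in WT stimulated libraries, against 39.4, 53.0 and 50.3 in KO control and 70.8, 56.8 and 62.9 in WT control libraries. The groups did not overlap, and the difference was −55.5 (exact permutation, adjusted p = 0.0175). This call ended with half-length lists, where the difference was −14.6 (exact permutation, adjusted p = 0.0504), and with calls covering 50% of a region, which also ended those of regions 5 and 7. Other body regions fell less far. Region 5 fell by 30.2 and region 7, the wide region 6.0 kb into the gene, fell by 22.4 and was called in 0 of 6 stimulated libraries, against all 6 control libraries. The region over the gene's starts, region 8 at chr11:52279535-52284525, held percentiles of 34.4 to 54.6 in KO stimulated, 40.9 to 53.9 in WT stimulated, 30.2 to 37.4 in KO control and 40.6 to 42.8 in WT control libraries. It differed by 7.08 and did not pass (exact permutation, adjusted p = 0.122; 0.0445 without WT stimulated replicate 1). The second listed start shown above stayed in a called region in all 12 libraries. Region 2, the strongest of the window at 79.8 to 87.6 in all 12 libraries, lies nearer to Skp1 and differed by −2.08 without passing. Region 4, 20.4 kb into the gene, was the 1 region that rose, with mean percentiles of 69.4 ± 3.7 in KO stimulated and 71.0 ± 1.5 in WT stimulated, against 62.7 ± 2.0 in KO control and 59.0 ± 3.1 in WT control libraries (SD, n = 3 each). Tcf7 and Lef1 are T cell genes as well. The mean percentile of the 7 T cell markers was 48.7 to 56.1 in KO stimulated, 44.5 to 48.4 in WT stimulated, 55.0 to 58.2 in KO control and 54.7 to 56.7 in WT control libraries, with Cd8a at 0 throughout. Its members ran in different directions. Cd5 averaged 13.2 in KO stimulated and 5.48 in WT stimulated, against 58.4 in KO control and 58.7 in WT control libraries, and Cd3e averaged 54.6 in KO stimulated and 56.5 in WT stimulated, against 79.8 in KO control and 74.9 in WT control libraries. Cd6 averaged 80.7 in KO stimulated and 67 in WT stimulated, against 52.2 in KO control and 43.7 in WT control libraries. That of the 6 B cell markers was 20.7 to 22.6 in KO stimulated, 20.5 to 22.4 in WT stimulated, 25.3 to 26.1 in KO control and 26.1 to 29.9 in WT control libraries, with Cd79b and Ms4a1 at 0 throughout, Cd79a called in all 12 libraries at 78.6 to 97.2 and Pax5 in all 12 at 27.2 to 62.3. That of the 8 NK markers was 67.4 to 71.3 in KO stimulated, 72.5 to 73.1 in WT stimulated, 72.8 to 74.1 in KO control and 76.0 to 76.8 in WT control libraries. The part of these lists in the results for Tcf7 and Lef1 was not tested.

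**Figure D3:**
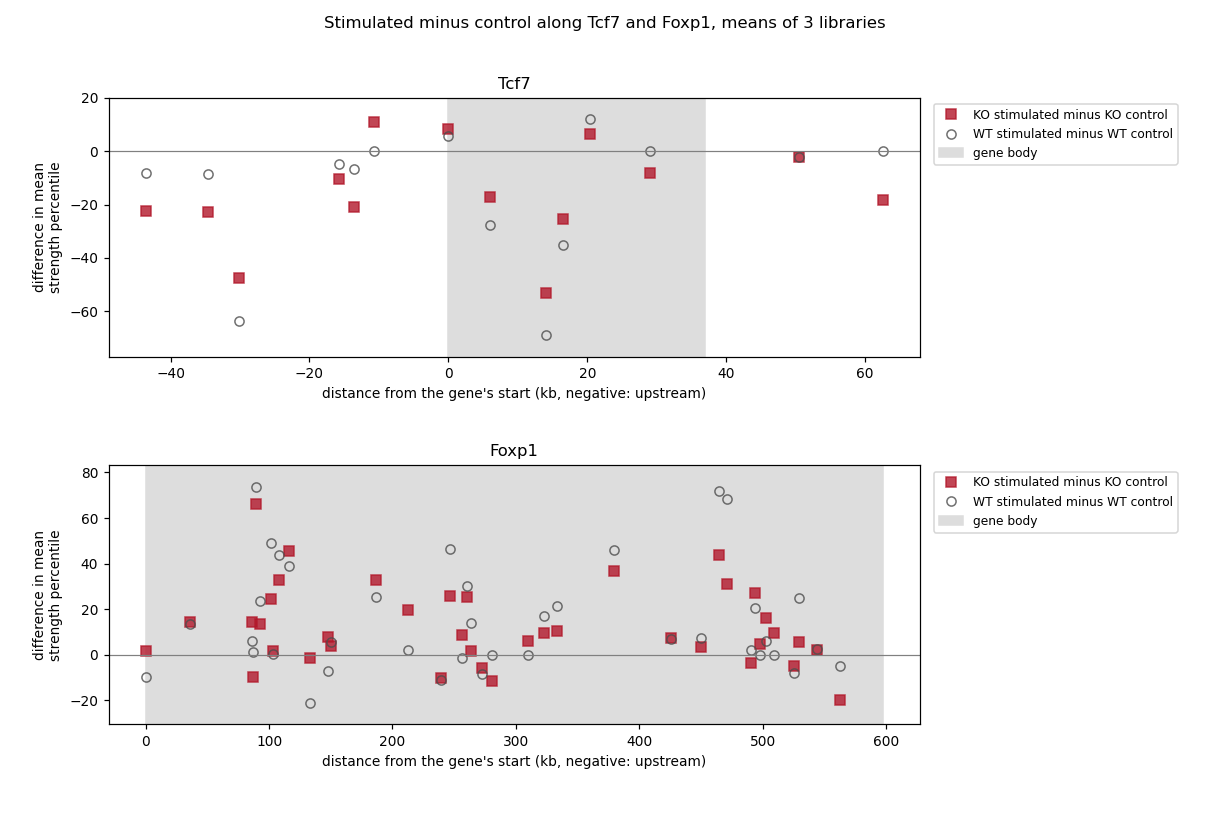
Difference in mean strength percentile, stimulated minus control (vertical axis), against distance from the start of the gene in kb (horizontal axis, negative for upstream), for KO (squares) and WT (circles) at Tcf7 and Foxp1, with the gene body shaded. The lowest Tcf7 points lie 14.1 kb inside and 30.2 kb upstream. The highest Foxp1 points form groups near 89.2 kb and near 464.7 kb, while points at the outermost start, at the edge of the gene body, lie lower than these.

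Lef1, at chr3:131110297-131224357 on the plus strand, had 4 regions that fell and 2 that rose in percentile. Region 4, 7.3 kb into the gene at chr3:131117557-131118540, was called in 0 of 3 KO stimulated and 0 of 3 WT stimulated libraries. Its percentiles were 32.1, 24.6 and 7.4 in KO control and 49.7, 42.5 and 38.8 in WT control libraries. It fell by 32.5 and was the Lef1 region that also passed the call test (exact permutation, adjusted p = 0.0169). WT stimulated libraries still held a weaker deposited interval in 3 of 3, and KO stimulated libraries in 0 of 3.

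Region 7, at chr3:131156328-131158320, begins 34 bp past the inner annotated start, whose window of 43.7% GC is shown above. It had 45.4, 66.8 and 63.9 in KO stimulated and 65.9, 69.0 and 60.6 in WT stimulated libraries, against 83.1, 83.4 and 84.4 in KO control and 91.8, 88.9 and 89.1 in WT control libraries. It fell by 24.9 with no overlap, and stayed called in all 12 libraries. The region over the outer starts, region 3, had 53.4 to 68.0 in KO stimulated, 42.7 to 59.1 in WT stimulated, 55.0 to 60.6 in KO control and 64.1 to 67.4 in WT control libraries and did not pass (difference −6.70, exact permutation, adjusted p = 0.257). Within the gene region 8 rose. This region, 68.1 kb from the start, had 40.0, 56.1 and 60.5 in KO stimulated and 64.1, 67 and 56.4 in WT stimulated libraries, against 23.3, 38.0 and 18.4 in KO control and 49.0, 30.6 and 34.8 in WT control libraries, a difference of 25.0. It was 8.77 with a −log10 q of at least 10, which ended the call (exact permutation, adjusted p = 0.643), as did half-length lists (18.0) and calls covering 50% of a region (31.6). Calls covering 50% of a region also ended that of region 7. Region 1, 24.5 kb upstream, rose by 17.4, and region 9, the strongest Lef1 region at 79.5 to 88.7, fell by 4.75.

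Foxo1, at chr3:52268337-52350109, had 2 regions that fell and 0 that rose in percentile, and neither lay over the start. Region 2 over the start had 77.0, 73.1 and 71.4 in KO stimulated and 71.0, 71.9 and 74.9 in WT stimulated libraries, against 74.9, 72.7 and 76.4 in KO control and 69.0, 74.8 and 72.7 in WT control libraries, a difference of −0.19 (exact permutation, adjusted p = 0.941). It was also the strongest region by its mean over the libraries. Regions 7 and 9 fell by 25.7 and 18.6, and regions 5 and 9 fell by the call test. Region 7, 74.7 kb from the start, had 33.7, 13.2 and 8.0 in KO stimulated and 28.4, 22.4 and 17.4 in WT stimulated libraries, against 38.9, 39.9 and 38.6 in KO control and 51.7, 54.4 and 53.8 in WT control libraries. The call of region 9 in the percentile test ended without any 1 of 10 of the libraries (all but KO control replicate 1 and WT control replicate 1), with adjusted p of 0.0508 to 0.0785 by the same exact permutation test. That of region 7 ended with half-length lists, where it differed by −3.3. Region 5 differed by −9.39 in the percentile test and did not pass with all libraries, but passed without KO stimulated replicate 1, where it fell by 15, with a −log10 q of at least 10, where it fell by 35.1, and with summit windows, where it fell by 25.

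Region 6 of Foxo1, at chr3:52327725-52329638 and 59.4 kb into the gene, is named after its values were seen. It had 0, 77.6 and 85.5 in KO stimulated and 90.7, 86.7 and 88.1 in WT stimulated libraries, against 41.0, 40.8 and 45.4 in KO control and 15.1, 39.6 and 26.9 in WT control libraries. KO stimulated replicate 1, the library with missing strong regions, has no deposited interval there, and every other stimulated library was above every control library. The difference was 36.6 with all libraries and did not pass (exact permutation, adjusted p = 0.0948). Without that library it was 50.2 and passed (exact permutation, adjusted p = 0.0158).

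Foxp1, at chr6:98925342-99522746 on the minus strand, spans 597.4 kb, and all its regions lie inside it or over 1 of its starts. By the percentile test 17 regions rose and 1 fell, and by the call test 7 rose and 1 fell of 13 that could pass. Region 35, at chr6:99432109-99433537 and 89.2 kb from the outer start, had 78.0, 64.3 and 63.1 in KO stimulated and 72.7, 72.4 and 75.7 in WT stimulated libraries, against 0, 7.4 and 0 in KO control and 0, 0 and 0 in WT control libraries. The groups were far apart, the difference was 69.8 (exact permutation, adjusted p = 0.0175), and the strongest summits lay within 63 bp where called. The deposited lists held an interval there in 3 of 3 KO control and 2 of 3 WT control libraries. Region 30, 116.2 kb from the outer start, had 45.1, 46.6 and 44.9 in KO stimulated and 35.9, 36.2 and 44.1 in WT stimulated libraries, against 0 in all 6 control libraries, a difference of 42.1. With calls covering 50% of a region the difference was 34.4 and did not pass (exact permutation, adjusted p = 0.0572). Regions 12 and 31 had no deposited interval in any control library, and they were the only 2 of the 8 regions higher by the call test in the whole set for which this held. Region 12 was weak, at 4.8, 4.5 and 0.9 in KO stimulated and 10.8, 4.3 and 6.6 in WT stimulated libraries. Region 31 had 42.4, 23.9 and 31.8 in KO stimulated and 46.3, 50 and 35.1 in WT stimulated libraries.

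A second group lies far inside the gene. Region 11, at chr6:99056185-99058055 and 464.7 kb from the outer start, had 93.4, 91.1 and 91.3 in KO stimulated and 83.4, 85.7 and 85.2 in WT stimulated libraries, against 48.1, 54.7 and 41.4 in KO control and 27.8, 10.3 and 0 in WT control libraries. The 4 groups did not overlap, and the stimulated minus control difference was 58.0. Region 10, at chr6:99050112-99051712, had 85.1, 69.7 and 77.3 in KO stimulated and 72.7, 66.4 and 74.5 in WT stimulated libraries, against 46.5, 43.3 and 49.0 in KO control and 0, 8.7 and 0 in WT control libraries, a difference of 49.7. Here the KO control libraries lay between the stimulated ones and the WT control ones. Region 15, the strongest of the gene, had 88.8 to 90.9 in stimulated libraries, against 76.0 to 82.6 in KO control and 62.3 to 71.5 in WT control libraries.

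The 3 start regions of Foxp1 differed from each other. Region 8, over the inner GC-rich start 493.6 kb from the outer one, had 66.8, 53.7 and 59.2 in KO stimulated and 46.3, 53.1 and 51.6 in WT stimulated libraries, against 30.7, 36.7 and 31.8 in KO control and 26.1, 28.4 and 35.4 in WT control libraries, a difference of 23.6 (exact permutation, adjusted p = 0.0175). The call ended with half-length lists, where the difference was 11.5 (exact permutation, adjusted p = 0.0504). The strongest summit was not at the same place in the groups, an observation made after the values were seen and not tested. It lay at 99026295 to 99027577 in the 6 stimulated libraries, against 99028035 to 99028797 in the 6 control libraries, and the annotated start is at 99028298. Region 22 over the middle start, whose window holds the TTCAAAG word, had 54.2 to 71.4 in KO stimulated, 50.5 to 55.6 in WT stimulated, 48.5 to 58.2 in KO control and 48.8 to 57.5 in WT control libraries and did not pass (difference 3.68, exact permutation, adjusted p = 0.466). Region 39 over the outer end of the gene had 0.9 to 42.4 in KO stimulated, 7.2 to 28.4 in WT stimulated, 7.4 to 30.7 in KO control and 22.7 to 26.7 in WT control libraries and did not pass either (difference −4.19, exact permutation, adjusted p = 0.657). Whether the 3 differences differ from one another was not tested.

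**Figure D4:**
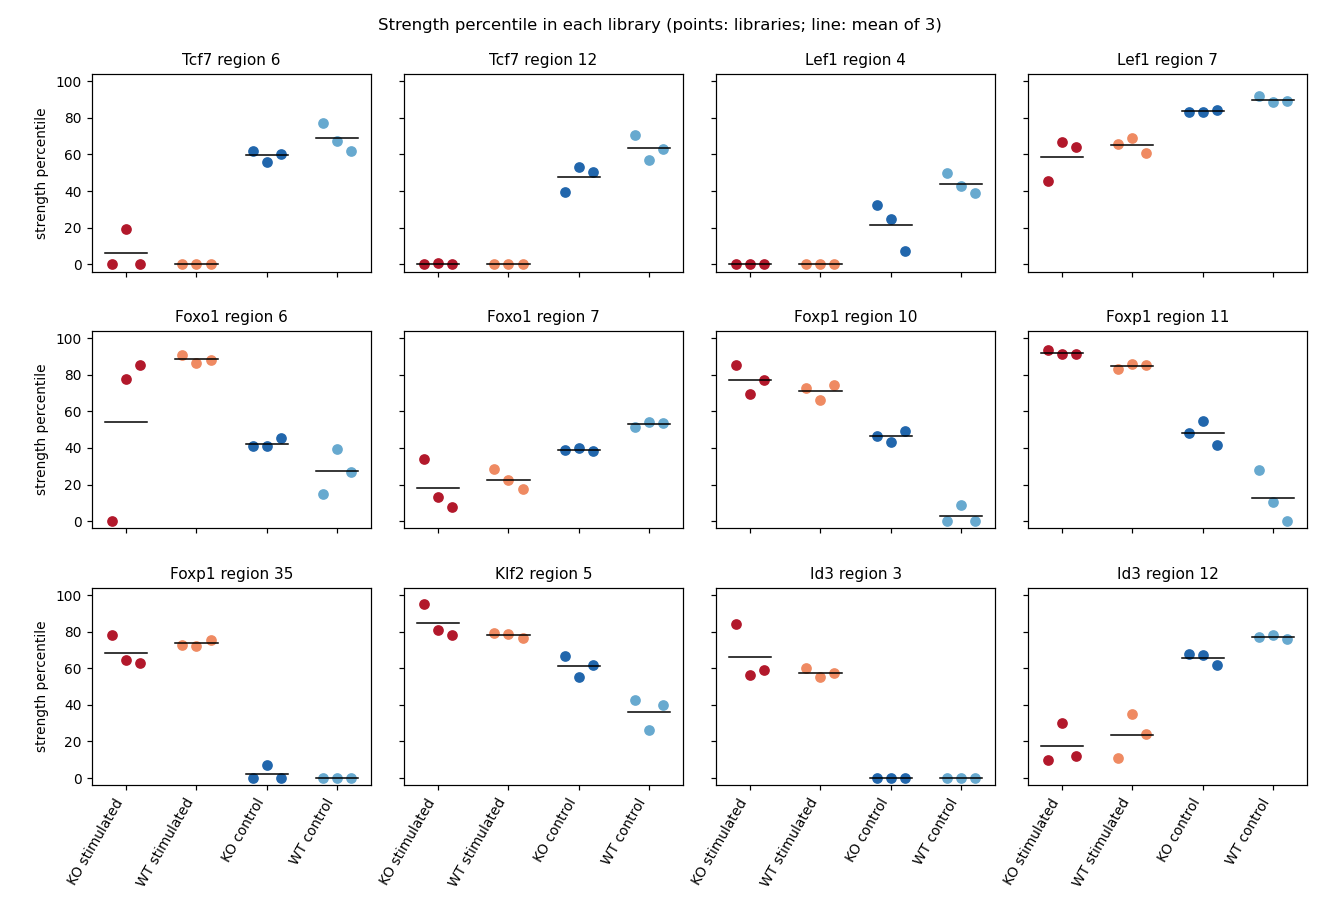
Strength percentile (vertical axis, 0 for not called) in each of the 12 libraries for 12 regions, by group; points are libraries and lines the mean of 3. Tcf7, Lef1, Foxo1 region 7 and Id3 region 12 panels are lower in stimulated groups, and Foxp1, Klf2 region 5 and Id3 region 3 panels are higher; in Foxo1 region 6 the KO stimulated point at 0 is replicate 1.

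Klf2 is a short gene, at chr8:72319062-72321654, and its start region was at a percentile of 82.6 or above in every library. Region 4, at chr8:72317724-72323573, had 82.6, 94.9 and 93.6 in KO stimulated and 94.1, 94.3 and 94.4 in WT stimulated libraries, against 96.3, 96.3 and 97.3 in KO control and 95.7, 97.0 and 95.7 in WT control libraries. It fell by 4.1, with every stimulated library below every control one, but its call in the percentile test ended without any 1 of the KO control libraries (exact permutation, adjusted p of 0.1 to 0.105), and with summit windows in place of merged intervals it differed by 2.69 in the other direction. Region 5, 11.4 kb past the start and downstream of the gene, had 94.9, 80.7 and 78.4 in KO stimulated and 79.5, 78.9 and 76.5 in WT stimulated libraries, against 66.7, 55.1 and 61.9 in KO control and 42.7, 26.4 and 39.8 in WT control libraries. It rose by 32.7 with no overlap. Of the 9 regions in the window 2 rose and 5 fell in percentile. The regions that fell by most, regions 1, 3 and 9, by 22.7, 19.1 and 18.6, lie 41.1 to 49.9 kb away, nearer to Ap1m1 or Eps15l1. The percentile calls ended for region 3 without any 1 of 9 libraries and for region 9 without KO control replicate 1 or any 1 WT control library. Calls covering 50% of a region ended those of regions 1, 3 and 4.

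Id3, at chr4:136143822-136145392, had 2 regions that rose and 2 that fell in percentile, none at the gene itself. Region 3, 19.7 kb upstream at chr4:136122700-136124134, had 84.0, 56.1 and 58.9 in KO stimulated and 60.1, 55.1 and 57.3 in WT stimulated libraries, against 0 in all 6 control libraries, where 1 library held a weaker deposited interval. It rose by 61.9 and passed the call test (exact permutation, adjusted p = 0.0169), though not the percentile test with calls covering 50% of a region (52.5, exact permutation, adjusted p = 0.0572). Region 2, 26.2 kb upstream, rose by 38.4, with 0, 38.9 and 52.3 in KO stimulated and 51.7, 43.3 and 45.8 in WT stimulated libraries, against 0, 0 and 1.3 in KO control and 0 in all WT control libraries (exact permutation, adjusted p = 0.0476). Downstream, region 12 at chr4:136189152-136190740 had 9.9, 30.2 and 11.8 in KO stimulated and 10.9, 34.8 and 24.2 in WT stimulated libraries, against 68.0, 67.5 and 62.0 in KO control and 77.0, 78.1 and 76.2 in WT control libraries. It fell by 51.2 without overlap and lies nearer to E2f2, a cell cycle gene. Region 7, also nearer to E2f2, averaged 0.647 in KO stimulated and 0 in WT stimulated, against 19.1 in KO control and 4.59 in WT control libraries, and passed as lower (exact permutation, adjusted p = 0.0476). With half-length lists region 2 differed by 1.32. The percentile calls of regions 2 and 7 ended without any 1 of 9 libraries (adjusted p of 0.05 to 0.0536 by the same exact permutation test). The start region, region 5, differed by −1.38 (exact permutation, adjusted p = 0.559; −18.1 and 0.0184 with summit windows), and region 9, the strongest, by 0.22.

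By position, against 18.5% that rose and 23.5% that fell among all regions, of 52 regions inside gene bodies 18 rose and 8 fell in percentile, of 16 upstream regions 3 rose and 7 fell, of 19 downstream regions 2 rose and 6 fell, and of 8 start regions 1 rose and 1 fell. Foxp1 held 16 of the 18 that rose inside gene bodies and the start region that rose, and the shares by position were not tested. All 8 start regions were called in all 12 libraries, as were 46.8% of all regions. With no library lacking a call, the call test could not call them in either direction.

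The covered width of a region, the bases under the intervals called in a library, changed with stimulation in 17 regions, 10 wider and 7 narrower, against 8.07% and 7.29% of all regions (exact permutation, Benjamini-Hochberg over all regions). Of the 17, 12 also passed the call test, so that their width fell to or rose above 0 in whole libraries, and 3 were called in all 12 libraries. Foxp1 region 21 covered 2483 ± 126 bp in KO stimulated and 2488 ± 50.8 bp in WT stimulated, against 1482 ± 310 bp in KO control and 1118 ± 115 bp in WT control libraries (SD, n = 3 each). Foxp1 region 16 covered 827 ± 89.8 bp in KO stimulated and 924 ± 86.0 bp in WT stimulated, against 559 ± 31.6 bp in KO control and 577 ± 105 bp in WT control libraries. Id3 region 12 narrowed, with 670 ± 48.7 bp in KO stimulated and 1073 ± 90.3 bp in WT stimulated, against 971 ± 31.8 bp in KO control and 1497 ± 44.4 bp in WT control libraries.

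The number of summits per region did not pass for any of the 95 regions (smallest adjusted p = 0.0775, exact permutation; 23 had an unadjusted p of 0.05 or less) or for any region of the genome (0%). Of the 95 regions 39 were called in all 12 libraries, as were 46.8% of all regions. In 20 of the 39 the strongest summits lay within 200 bp of each other, and the median range was 198 bp. The summit range over all regions was not computed. Tcf7 region 2, Lef1 region 9 and Lef1 region 7 had ranges of 29, 41 and 50 bp, while Foxo1 region 2 and Foxp1 region 8, both over starts, had ranges of 2300 and 2502 bp and Id3 region 9 one of 2607 bp.

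Between genotypes no region of the set passed the percentile test (0% of all regions did; smallest adjusted p = 0.116, exact permutation within treatment, two-sided), and neither of the 2 regions that the call test could call passed it (0% of 1817), nor had either an unadjusted p of 0.05 or less, as 26.4% of the 1817 did. Covered width, summit number and called regions per gene passed in no case either (0% each), with 10 regions at an unadjusted p of 0.05 or less for width and 0 for summits. At an unadjusted p of 0.05 or less, 11 regions were higher and 6 lower in KO cells (11.6% and 6.32%), against 7% and 7.8% of all regions. Foxp1 held 8 of the 11 and 0 of the 6. These regions and others below that are not over a start, strongest or most changed were named after their values were seen. At Foxp1 region 11 KO minus WT was 21.3, at region 3 it was 21.8 and at region 38 it was 11.2. Region 3, 529.1 kb from the outer start, averaged 55.3 ± 3.6 in KO stimulated and 43.2 ± 5.8 in WT stimulated, and 49.8 ± 2.8 in KO control and 18.3 ± 13.6 in WT control libraries (SD, n = 3 each). Called Foxp1 regions averaged 22.7 ± 1.2 in KO control and 18.3 ± 1.53 in WT control libraries without overlap, and 29.3 ± 2.08 in KO stimulated and 27.3 ± 3.06 in WT stimulated libraries with overlap (KO minus WT 3.17, exact permutation, adjusted p = 0.952). The single contrasts have 3 libraries a side, with a smallest possible p of 0.1, and were not tested. In control cells all 3 KO percentiles lay above all 3 WT ones at 8 of the 39 Foxp1 regions and below at 1, against 9.24% above and 10.6% below among all regions. Over the 95 regions this held for 14 above and 18 below. In stimulated cells 11 lay above and 8 below, against 8.39% and 11% of all regions.

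At the other genes differences ran in both directions without passing. At an unadjusted p of 0.05 or less (exact permutation) Tcf7 had 3 of 14 regions lower in KO cells (21.4%) and 0 higher. Klf2 had 3 of 9 lower (33.3%) and 1 higher (11.1%). Id3 had 2 of 12 higher (16.7%) and 0 lower, and Lef1 and Foxo1 had 0 of either. Over all regions 7% were higher and 7.8% lower. Tcf7 region 13, 34.5 kb upstream, averaged 65.4 ± 6.6 in KO stimulated and 82.3 ± 1.5 in WT stimulated, and 88.3 ± 0.59 in KO control and 90.8 ± 0.28 in WT control libraries (SD, n = 3 each). Tcf7 region 14, nearer to Vdac1, was called in 0 of 3 KO stimulated and 3 of 3 WT stimulated libraries, as 1.71% of all regions were. There KO stimulated replicate 3 held a deposited interval below the weakest one kept in its list. The reverse, called in 3 of 3 KO stimulated and 0 of 3 WT stimulated libraries, held for Foxp1 region 7 and Id3 region 1, as for 1.03% of all regions. At both, every WT stimulated library held a deposited interval below its cut. The weakest interval kept had a −log10 q of 1.31 to 13.2 in KO stimulated and 16.6 to 27.05 in WT stimulated lists. In control cells Lef1 region 10, nearer to Hadh, was called in 0 of 3 KO and 3 of 3 WT libraries (0.892% of all regions), and 0 regions had the reverse (1.14%). KO control replicate 1 and KO control replicate 2 held a deposited interval below the cut at Lef1 region 10. At the start of Id3 the KO percentiles were 63.8, 72.0 and 68.0 in stimulated and 69.2, 71.1 and 65 in control libraries, and the WT percentiles 54.4, 62.0 and 55.7 in stimulated and 61.0, 60.2 and 57.8 in control libraries. Each KO group lay above its WT group, with a difference of 9.63 (exact permutation, p = 0.005 unadjusted and 0.116 adjusted).

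Whether the response to stimulation differed with genotype was tested as a difference of differences. No region passed (0% of all regions; smallest adjusted p = 0.612, exact permutation), and 8 of the 95 had an unadjusted p of 0.05 or less (8.42%, against 5.46% of all regions). Within KO cells 7 regions were called in every stimulated and no control library, 6 of them at Foxp1 and 1 at Id3, a pattern held by 5.19% of all regions. Within WT cells 12 did, 8 at Foxp1, 2 at Foxo1 and 2 at Id3, against 9.42% of all regions. The opposite pattern held for 6 regions in KO cells, 2 of them at Tcf7 and 2 at Lef1, against 4.65% of all regions, and for 9 in WT cells, 3 of them at Tcf7 and 2 at Lef1, against 6.42% of all regions. All 3 stimulated percentiles lay above all 3 control ones at 20 regions in KO cells (16.5% of all regions) and at 31 in WT cells (24.2%), and below at 22 in KO cells (21.8%) and at 27 in WT cells (29.1%). The KO and WT contrasts share no libraries.

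A list of 30 other genes, namely paralogs, partners and reported targets of the 6 and other genes of lymphocyte quiescence, homing and early stages, had 257 regions within 50 kb. By the call test 18 rose and 16 fell of 50 that could pass (36% and 32%), against 33.8% and 25.9% over the genome. By the percentile test 46 rose and 74 fell (17.9% and 28.8%), against 18.5% and 23.5% of all regions, with a median difference of −2.87. Among the genes 8 had only higher regions by the call test, 7 only lower, 4 both and 11 neither, and no region passed for genotype. Il7r, the interleukin-7 receptor gene and a known Foxo1 target, had 4 of its 5 regions higher, and averaged 4 ± 0 called regions in KO stimulated and 4 ± 0 in WT stimulated, against 0.333 ± 0.58 in KO control and 1 ± 0 in WT control libraries. Btg1, an antiproliferative gene, the E protein gene Tcf12 and the chromatin organiser Satb1 each had 2 higher and 0 lower. Cd27, a receptor of less mature mouse NK cells, and Btg2 each had 2 lower and 0 higher. Ccr7, the lymph node homing receptor, had 3 lower and 1 higher, and Bach2, a repressor of lymphocyte differentiation, had 2 lower and 1 higher. Tsc22d3, which encodes GILZ, had 1 lower and 1 higher.

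By the mean percentile over its regions in the 12 libraries, the genes most like Tcf7 were 4933424G06Rik, Lst1 and Ltb (Pearson's r of 0.99 each), and those most like Foxp1 were Elmo1, Fam227b and Batf3 (r of 0.99 each). Hopx was most like Klf2 (r = 0.95), Klhdc3 and Mea1 most like Id3 (r = 0.93 each), Stk26 most like Lef1 (r = 0.92) and Arfip1 most like Foxo1 (r = 0.92). These are picked as the highest values over all genes and across 12 libraries that share their groups and lists, so they are descriptions. Within the set the mean percentiles of Tcf7 and Foxp1 ran opposite to each other (r = −0.96), the most extreme of the member pairs. The other pairs ran from −0.83 (Foxp1 and Klf2) to 0.77 (Tcf7 and Klf2). Each r spans both treatments, so it includes the differences with stimulation given above. The mean over Tcf7 regions was 27.6 to 32.0 in KO stimulated, 31.1 to 34.3 in WT stimulated, 44.6 to 45.5 in KO control and 46.0 to 49.8 in WT control libraries. That over Foxp1 regions was 31.0 to 37.9 in KO stimulated, 30.9 to 32.7 in WT stimulated, 21.0 to 23.0 in KO control and 16 to 17.7 in WT control libraries.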

How the data were processed

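The authors processed the ATAC-seq reads and deposited 1 narrowPeak list per library for all 12 libraries. MACS2 2.1.1.20160309 and Bowtie2 2.3.4.1 are listed with build mm10, per the submitters' processing notes. These also list SAMtools 1.15.1, cutadapt 4.1, deepTools 3.4.2 and FastQC 0.11.9. Settings and any shift of reads for transposase insertion are not given in the sources used here. The authors' deposited values per peak are a fold (a ratio to background), −log10 p and −log10 q values, a score derived from them and a summit offset. Each belongs to 1 peak, and here served to order or select peaks inside a single list. Read depth is unknown.

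Summits of 1 interval were joined. The 35110 strongest intervals of each library by −log10 q were merged at an overlap of 1 bp or more, and those found in 2 or more libraries were retained, giving 45082 regions with a median width of 1193 bp. Regions over Tcf7, Lef1, Foxo1, Foxp1, Klf2 and Id3 gene bodies plus 50 kb on each side (RefSeq, GRCm38.p6) formed the set, numbered along each chromosome. The members, gene lists and tests were chosen with earlier results of these data known. Tests were exact two-sided permutations of library labels within genotype (stimulation) or treatment (genotype), with 400 rearrangements and a smallest p of 0.005, adjusted by Benjamini-Hochberg over the whole genome at 0.05. Single contrasts of 3 against 3 cannot go below 0.1. Named regions are each gene's start regions, its strongest region by mean percentile, and up to 4 that passed a test with the largest differences. Named list genes have at least 2 regions passing the call test. Some list and marker genes are not reported here by name.

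Simulated data covered 45082 regions. For the call test a changed region was called in nearly all libraries of the higher side and nearly none of the lower. Partial changes were not simulated for this test. The call test for stimulation recovered 0% of 200 changed regions, 78.9% of 4000 and 97.7% of 16000. For genotype it recovered 0%, 97.6% and 97.7%. The percentile test, for a difference of 30 points, recovered 0% of 200 or 4000 and 100% of 16000 for either effect, so few changed regions cannot pass whatever their separation. Replicate numbers were not taken to pair the libraries, since not every same-numbered pair had a correlation of deviations over 0.1. The correlations were 0.044 to 0.114 between treatments, −0.058 to 0.093 between genotypes and −0.013 to 0.222 between libraries differing in both, where the 3 pairs of KO stimulated and WT control libraries were over 0.1. Correlations between differently numbered libraries are not given for comparison, so these values cannot decide whether same-numbered libraries share a batch. Alternatives were all deposited intervals, half-length lists, a −log10 q of at least 10, ranking by fold, calls covering 50% of a region, summit windows of 250 bp to each side, no filter on regions, 20 kb flanks, the replicate block and leaving out each library. Python 3.11.15, NumPy 2.4.6, pandas 2.3.3 and SciPy 1.17.1 were used.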

Additional observations from a re-analysis of the deposited data

Results flagged for a closer look

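Foxo1 region 6, 59.4 kb into the gene, had genotype differences of opposite sign in the 2 treatments, with no overlap between KO and WT libraries in either. KO minus WT was −34.1 in stimulated and 15.2 in control libraries, a difference of differences of −49.3 percentile points (exact permutation, p = 0.005 unadjusted and 0.612 adjusted over all regions). KO stimulated replicate 1 has no deposited interval there. Without it KO minus WT was −6.91 in stimulated libraries, where the KO mean was then 81.6.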

How the results depend on the processing

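The 8 higher and 8 lower regions of the call test for stimulation, the 24 higher and 22 lower of the percentile test, the 17 of changed width and the 3 genes of changed call number depended on the lists. The set itself changed size. It held 95 regions here, 119 with all deposited intervals, 45 with half-length lists and 101 with a −log10 q of at least 10. It held 93 with calls covering 50% of a region, 114 with summit windows, 105 with no filter and 73 with 20 kb flanks. The counts are therefore not of 1 fixed set, and shares over all regions under these settings were not computed. With all deposited intervals the call test gave 4 higher and 0 lower and 0 genes. Half-length lists gave 4 lower by the call test, 13 higher and 9 lower by the percentile test and 11 of changed width. A −log10 q of at least 10 gave 2 higher and 2 lower by the call test, 15 higher by the percentile test and 0 genes. Calls covering 50% of a region gave 5 lower by the call test, 10 lower by the percentile test and 0 genes, and 20 kb flanks 5, 12 and 0. Ranking by fold gave the same order as −log10 q in all 12 lists, so it could change nothing. Summit windows (which give no width or summit number) and no filter on regions kept all counts within 1.5 times. Without 1 library the call test gave 8 to 11 higher and 8 to 10 lower, the percentile test 20 to 30 higher and 14 to 22 lower, width 15 to 20 and genes 2 to 4. The 14 lower came without KO control replicate 1, KO control replicate 3 or WT control replicate 2, and without WT stimulated replicate 2 Klf2 passed as well (adjusted p = 0.0437, exact permutation). Without KO stimulated replicate 1 the counts were 11 and 8 by the call test and 30 and 20 by the percentile test. Of 26 named regions that passed the percentile test, 20 passed without any 1 library. Genotype counts were 0 under every setting.

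The replicate block left 2 lower regions by the call test, 0 higher and 0 lower by the percentile test, 0 of changed width and 0 genes. Its smallest adjusted p over the genome in the percentile test was 0.0881, so no region could pass it. Whether the numbers mark a shared batch is not labelled, and not every same-numbered pair was correlated over 0.1. Some directions changed. Called regions of Lef1 differed by 0.5 with half-length lists, and those of Foxo1 by 0.167 with half-length lists and by 0.333 with 20 kb flanks. Foxp1 region 22 differed by −6.09 with calls covering 50% of a region and by −3.87 with summit windows. With summit windows Klf2 region 4 differed by 2.69 and Id3 region 9 by −12.4 (adjusted p = 0.0184, exact permutation). Without 1 library Foxo1 region 2 ran between −0.99 and 0.46, Id3 region 9 between −1.39 and 2.77 and Foxp1 region 39 between −9.18 and 1.18. The cause was not tested.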
